A study of Sus scrofa with 10 samples.

Results

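Antioxidant and glutathione genes were followed in aortic valve leaflets of swine with inherited high blood cholesterol and of wild-type swine. The genes were chosen by name, as those whose single symbol in the array annotation begins with PRDX, GPX, GST, TXN, GCL, HMOX, NQO, MT1 or MT2, or is SOD1, SOD2, SOD3, CAT or GSR. That gave 42 of the 6765 genes with exactly 1 symbol, and all 42 were tested, with no filter on low values. Each was read by its brightest probe set, a group of short probes for the same transcript, and values are log2 expression as the submitters deposited it, so that a difference of 1 is a doubling. Probe sets bind with different strength, so levels were compared between arrays and not between genes.

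The 4 adult RFH arrays came from Rapacz familial hypercholesterolemic swine aged 2 years, and the 3 juvenile RFH arrays from the same breed aged 3 months. The 3 juvenile WT arrays came from Rapacz Wisconsin miniature swine aged 3 months, labelled as wild type (RFH -/-). All animals were female and ate standard chow, and leaflets went into RNAlater within an hour of death by exsanguination. Adult RFH was compared with juvenile RFH, and juvenile RFH with juvenile WT, and both comparisons use the same 3 juvenile RFH arrays. Age and the time spent with high cholesterol cannot be told apart in the first comparison, and the RFH genotype and the breed named on the label cannot be told apart in the second. Whether every array stands for its own animal is not stated, so the p-values cover the spread among arrays as they are labelled. The leaflet is a mixture of cell types, and in such bulk RNA fewer cells of a type and less RNA per cell cannot be told apart.

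Cells remove reactive oxygen in linked steps. Superoxide dismutases turn superoxide into hydrogen peroxide, which catalase, the peroxiredoxins and the glutathione peroxidases reduce to water. The peroxidases draw on thioredoxin and on glutathione, a tripeptide made by glutamate-cysteine ligase and glutathione synthetase, and both are kept reduced with NADPH. Many of these genes are induced by the transcription factor NRF2, and oxidative stress is known from calcified human aortic valves. Not every name here is an antioxidant: the prefix TXN also takes in TXNIP, which binds and inhibits thioredoxin, and TXNL4A, a component of the spliceosome.

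Array medians lay between 6.96 and 7.03. The 12 poly-A control probe sets, for RNA added during labelling, had a mean of 7.66 ± 0.20 in the adult RFH arrays (SD, n = 4), 6.84 ± 0.01 in those of juvenile RFH (SD, n = 3) and 7.07 ± 0.06 in those of juvenile WT (SD, n = 3). The adult mean was higher than the juvenile RFH mean by 0.82, with no overlap (exact two-sided permutation p = 0.0571, the lowest possible with 4 and 3 arrays). Juvenile RFH minus juvenile WT was -0.23, also with no overlap (exact two-sided permutation p = 0.1, the lowest possible with 3 and 3 arrays), and the labels name no batch. A difference in labelling between the groups therefore cannot be told apart from age or genotype, and its part in the results was not tested. The 9 hybridisation controls differed by 0.08, adult minus juvenile RFH (exact two-sided permutation p = 0.457), and by 0.01, juvenile RFH minus juvenile WT (exact two-sided permutation p = 0.8). For 3 housekeeping controls the excess of 3' over 5' signal is a sign of RNA breakdown, and its difference, adult minus juvenile RFH, was -0.02 (exact two-sided permutation p = 0.914). Single adult arrays were less even, from 1.75 to 2.84, against 2.11 to 2.38 in juvenile RFH and 1.99 to 2.18 in juvenile WT arrays. Juvenile RFH minus juvenile WT was 0.16 (exact two-sided permutation p = 0.2). Markers of valve interstitial cells and fibroblasts, 9 of the 11 listed, averaged 11.81 ± 0.21 over the adult RFH arrays (SD, n = 4), 12.18 ± 0.04 over juvenile RFH (SD, n = 3) and 12.28 ± 0.04 over juvenile WT (SD, n = 3). All 9 had negative differences in adult over juvenile RFH, and 3 had an adjusted p under 0.05 in limma. PDGFRB, 1 of these 3, was no longer under it without juvenile RFH replicate 1 (0.117), nor without several other single arrays. Cardiac muscle markers, 11 of 14, stood at 8.74 in juvenile RFH replicate 2, against 5.24 to 5.80 in the other arrays, so counts are also given without that array.

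Between adult and juvenile RFH leaflets, 12 of the 42 genes passed the threshold, 28.6%, with 10 upward and 2 downward. The 10 that rose were MT1A, GPX3, GSTM3, SOD2, HMOX1, GCLC, GPX1, PRDX6, TXNRD1 and GPX4, and the 2 that fell were GPX7 and TXNIP. The threshold was an adjusted p under 0.05 in limma, with Benjamini-Hochberg adjustment over all 23999 probe sets. Of all 6765 genes 19.3% passed, 11.4% upward and 7.85% downward. The genes that rose made up a larger share of these 42 than of all genes, and those that fell did not. These 42 were mostly bright, with only 7 below the median of all probe set means. With dim probe sets left out, 3247 of 12000 probe sets passed, against 4025 of all 23999. The part of brightness in the larger share was not tested. The median difference was 0.11 over the 42 genes and 0.02 over all genes. In 11 of the 12 the adult and juvenile RFH arrays did not overlap, MT1A being the exception. Over the 42 the adult arrays lay above all juvenile RFH arrays in 10 genes and below them in 3, 13 genes in all, where the same held for 16.6% and 13.3% of all genes, 29.9% in all. Without juvenile RFH replicate 2, 10 genes passed, 8 upward and 2 downward.

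**Figure D1:**
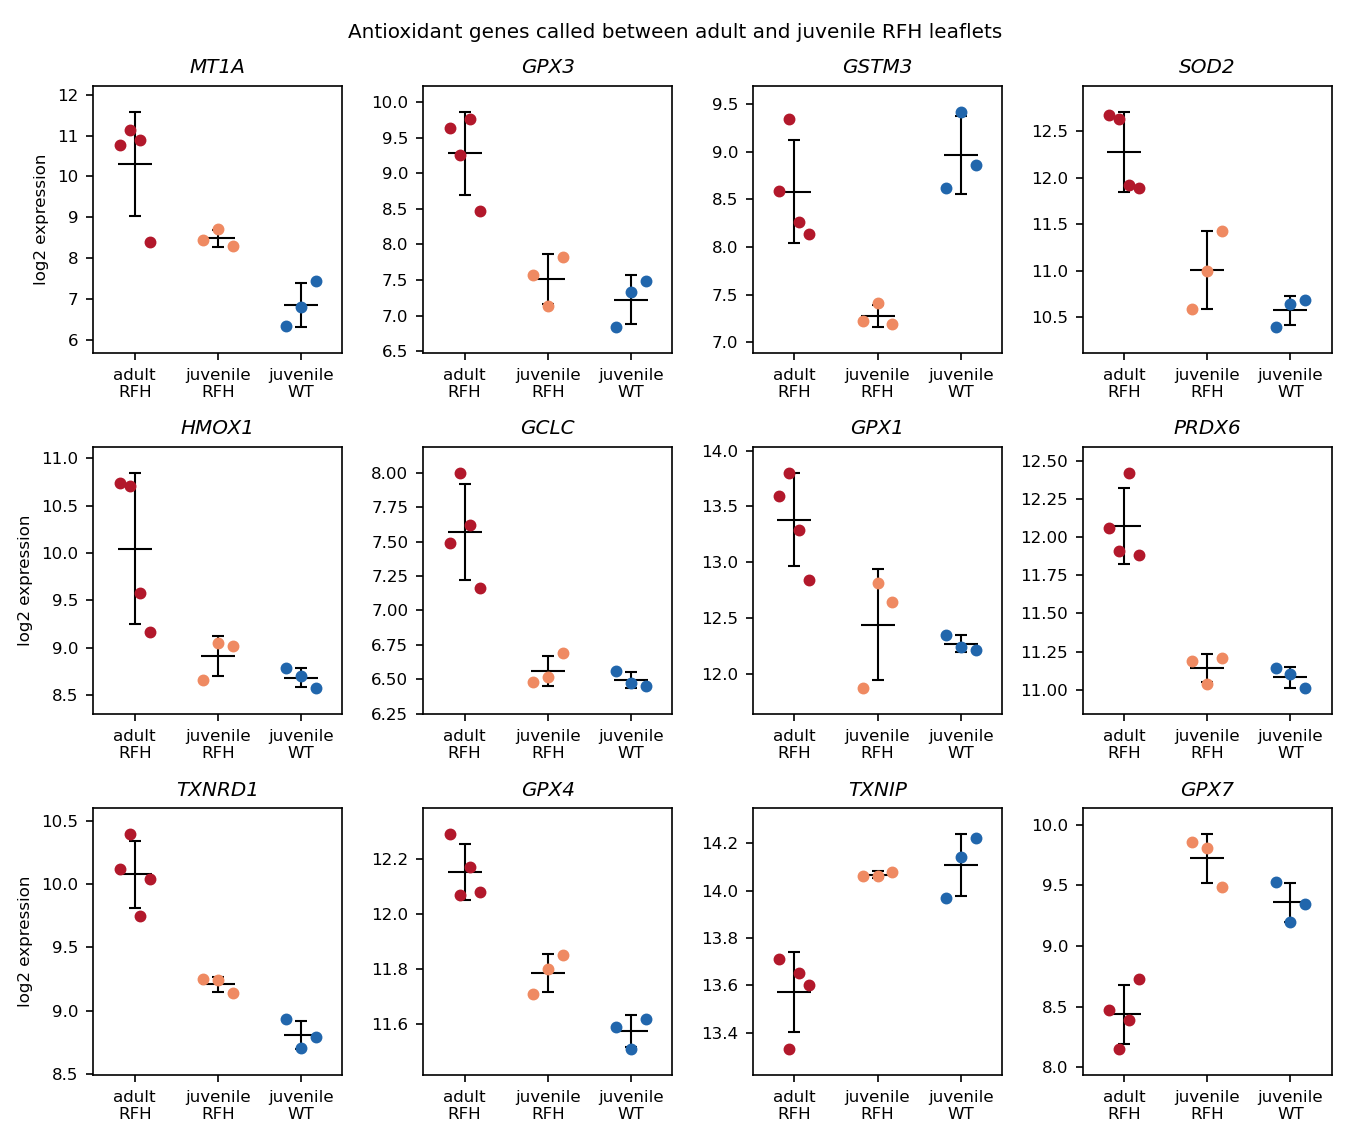
Log2 expression (vertical axis, a separate range in each panel) of the 12 genes, chosen by name, past the threshold between adult and juvenile RFH leaflets. TXNIP among them is an inhibitor of thioredoxin. Each point is an array, with 4 adult RFH, 3 juvenile RFH and 3 juvenile WT arrays from left to right, and black bars give the mean ± SD. MT1A has an adult array at 8.40, inside the juvenile RFH range, and GSTM3 is low only in the juvenile RFH arrays.

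The mitochondrial superoxide dismutase SOD2 read 12.68, 12.63, 11.92 and 11.89 in adult RFH arrays, against 10.59, 11.00 and 11.43 in juvenile RFH and 10.39, 10.64 and 10.68 in juvenile WT arrays. Every adult array lay above every juvenile array, and adult replicates 1 and 2 stood above replicates 3 and 4. The rise over juvenile RFH was 1.27 ± 0.24 (SE) on the log2 scale, 2.41-fold (limma adjusted p = 0.00635). The other 3 genes of this step did not pass. SOD1, the cytosolic enzyme, averaged 12.10 ± 0.15 over the adult RFH arrays (SD, n = 4) and 12.11 ± 0.05 over juvenile RFH (SD, n = 3). Catalase (CAT) differed by 0.01 ± 0.16 (SE). SOD3, the extracellular enzyme, read 9.18, 9.02, 10.09 and 9.44 in adult RFH, 9.15, 9.01 and 9.24 in juvenile RFH and 9.05, 8.98 and 9.22 in juvenile WT arrays, so that adult replicates 3 and 4 lay above the juveniles and replicates 1 and 2 among them.

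Among the 6 peroxiredoxins only PRDX6, a peroxidase that uses glutathione and also acts on phospholipid peroxides, passed in this comparison. It read 12.06, 11.91, 12.42 and 11.88 in adult RFH, 11.19, 11.04 and 11.21 in juvenile RFH and 11.14, 11.10 and 11.01 in juvenile WT arrays. The adult arrays lay apart from both juvenile groups, which overlapped each other, and the rise over juvenile RFH was 0.93 ± 0.13 (SE), 1.9-fold (limma adjusted p = 0.00131). The 5 others, PRDX1 to PRDX5, had differences of -0.16 to 0.25. The smallest p among them belonged to PRDX1, with 12.37, 12.15, 11.84 and 11.77 in adult RFH, 11.77, 11.84 and 11.73 in juvenile RFH and 11.47, 11.40 and 11.36 in juvenile WT arrays (limma adjusted p = 0.238 for adult over juvenile RFH).

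The glutathione peroxidases had the most calls, 4 of 7, with 3 upward and 1 downward, beside 11.4% and 7.85% of all genes. Of the 3 upward calls, those of GPX4 and GPX1 were lost when single arrays were left out. GPX3, the peroxidase secreted into plasma, read 9.64, 9.25, 9.76 and 8.47 in adult RFH, 7.57, 7.14 and 7.83 in juvenile RFH and 6.84, 7.34 and 7.49 in juvenile WT arrays. It rose by 1.76 ± 0.30 (SE), 3.39-fold (limma adjusted p = 0.00351), and the lowest adult array, replicate 4, was still above the highest juvenile. GPX4, which reduces lipid hydroperoxides within membranes, read 12.29, 12.07, 12.17 and 12.08 in adult RFH, 11.71, 11.80 and 11.85 in juvenile RFH and 11.59, 11.51 and 11.62 in juvenile WT arrays. Its 3 groups did not overlap, and the adult rise was 0.37 ± 0.09 (SE, limma adjusted p = 0.0172). Leaving out juvenile RFH replicate 1 ended the call (0.33, adjusted p = 0.0721).

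GPX1, the abundant cytosolic peroxidase, read 13.59, 13.80, 13.29 and 12.84 in adult RFH, 11.87, 12.81 and 12.64 in juvenile RFH and 12.35, 12.24 and 12.21 in juvenile WT arrays. The highest juvenile RFH array and the lowest adult array were nearly level, while juvenile RFH replicate 1 lay below all wild-type arrays. The difference was 0.94 ± 0.25 (SE, limma adjusted p = 0.0272). It was 0.66 without juvenile RFH replicate 1 (adjusted p = 0.103), and the call was also lost without juvenile RFH replicate 3 (0.0551), adult replicate 1 (0.0617) or adult replicate 2 (0.0595).

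GPX7, a peroxidase of the endoplasmic reticulum that takes part in oxidative protein folding, moved the other way. It read 8.47, 8.15, 8.39 and 8.73 in adult RFH, 9.86, 9.81 and 9.49 in juvenile RFH and 9.53, 9.20 and 9.35 in juvenile WT arrays. All adult arrays lay below all juvenile arrays, and the fall was -1.28 ± 0.15 (SE), 2.44-fold (limma adjusted p = 0.000445). The remaining 3, GPX2, GPX5 and GPX6, read below the array medians in every array, between 3.78 and 6.61, where background limits what can be seen. GPX6 had the smallest p of them, with 4.42, 4.34, 4.46 and 4.37 in adult RFH, 4.87, 4.53 and 4.44 in juvenile RFH and 4.38, 4.41 and 4.63 in juvenile WT arrays (limma adjusted p = 0.221 for adult over juvenile RFH).

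**Figure D2:**
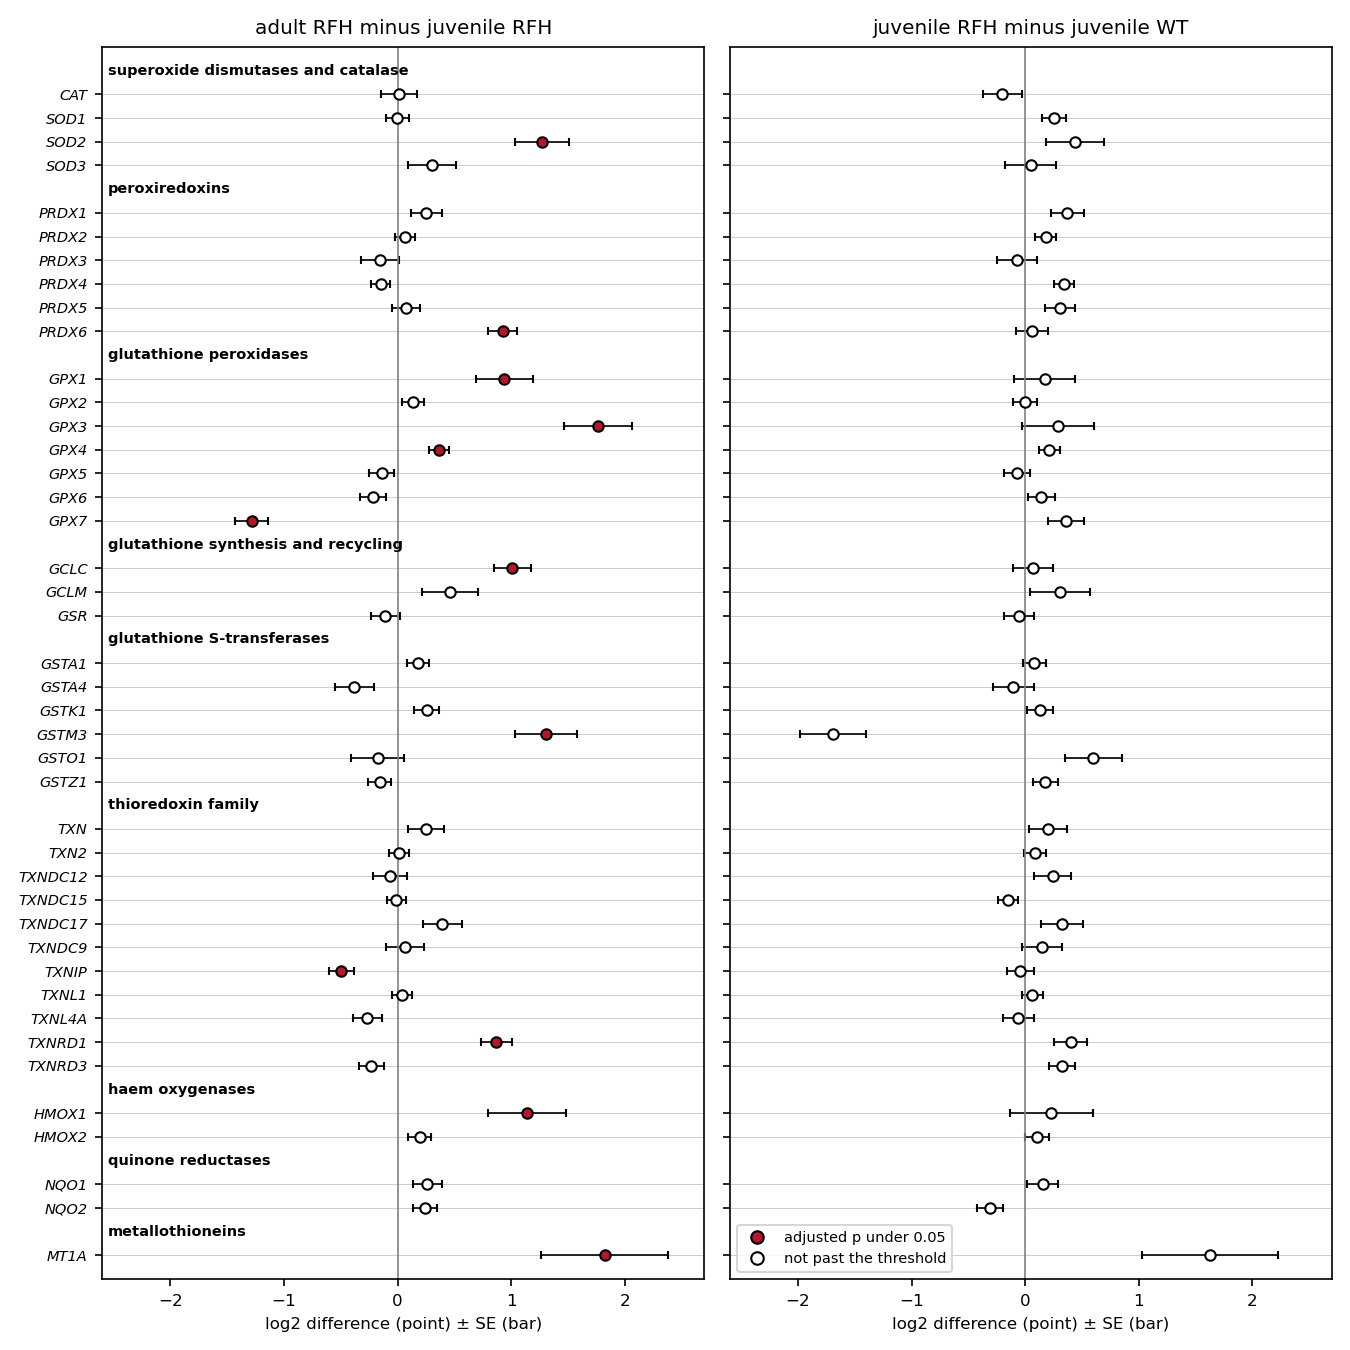
Log2 difference ± SE of all 42 genes by role, adult RFH minus juvenile RFH on the left and juvenile RFH minus juvenile WT on the right. Filled points passed the threshold, 12 on the left and 0 on the right, and the largest differences lie between -1.69 (GSTM3, right) and 1.82 (MT1A, left).

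For glutathione itself, GCLC, the catalytic subunit of glutamate-cysteine ligase and the rate-limiting step of its synthesis, read 7.49, 8.0, 7.62 and 7.16 in adult RFH, 6.48, 6.52 and 6.69 in juvenile RFH and 6.56, 6.47 and 6.45 in juvenile WT arrays. The adults lay above both juvenile groups and the rise was 1.01 ± 0.16 (SE), 2.01-fold (limma adjusted p = 0.00298). GCLM, the regulatory subunit, read 6.88, 7.30, 6.48 and 6.0 in adult RFH, 6.38, 6.23 and 6.0 in juvenile RFH and 5.88, 5.84 and 5.96 in juvenile WT arrays. Adult replicate 4 was level with the lowest juvenile RFH array, and the difference of 0.46 ± 0.25 (SE) did not pass (limma adjusted p = 0.229). Without that array it was 0.68 and passed (adjusted p = 0.0326). GSR, which returns oxidised glutathione to its reduced form, differed by -0.11 ± 0.12 (SE).

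Of the 6 glutathione S-transferases, which couple glutathione to reactive compounds, only GSTM3 passed. It read 8.59, 9.35, 8.26 and 8.14 in adult RFH, 7.22, 7.41 and 7.19 in juvenile RFH and 8.62, 9.42 and 8.86 in juvenile WT arrays. Here the juvenile RFH arrays stood apart: all 3 lay below every adult RFH and every juvenile WT array, while adult RFH and juvenile WT overlapped. GSTM3 rose by 1.31 ± 0.27 (SE) in adult over juvenile RFH, 2.48-fold (limma adjusted p = 0.00976), and was lower in juvenile RFH than in juvenile WT by -1.69 ± 0.29 (SE), short of the threshold (limma adjusted p = 0.0718). Both differences use the same low juvenile RFH arrays. The other 5 transferases had adult differences of -0.38 to 0.26. GSTK1, of mitochondria and peroxisomes, had the smallest p of these, with 8.77, 8.67, 9.03 and 8.91 in adult RFH, 8.44, 8.61 and 8.72 in juvenile RFH and 8.37, 8.46 and 8.54 in juvenile WT arrays (limma adjusted p = 0.14).

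In the thioredoxin family, 1 of 11 genes rose, 1 fell and 9 did not pass, so that 18.2% passed, near the 19.3% of all genes. TXNRD1, the cytosolic reductase that recharges thioredoxin with NADPH, read 10.12, 10.40, 9.75 and 10.04 in adult RFH, 9.25, 9.24 and 9.14 in juvenile RFH and 8.93, 8.70 and 8.79 in juvenile WT arrays. The 3 groups did not overlap, and the adult rise was 0.87 ± 0.14 (SE), 1.83-fold (limma adjusted p = 0.0025). TXNIP, the inhibitor of thioredoxin, read 13.71, 13.33, 13.65 and 13.60 in adult RFH, 14.06, 14.06 and 14.08 in juvenile RFH and 13.97, 14.14 and 14.22 in juvenile WT arrays, a fall of -0.50 ± 0.11 (SE, limma adjusted p = 0.0117), with all adults below all juveniles. Thioredoxin itself (TXN) differed by 0.25 ± 0.16 (SE) and mitochondrial thioredoxin (TXN2) by 0.01 ± 0.09 (SE). TXNDC17, a thioredoxin-like protein, had the smallest p of the 9, with 11.90, 11.89, 11.17 and 11.43 in adult RFH, 11.03, 11.36 and 11.22 in juvenile RFH and 10.80, 10.88 and 10.96 in juvenile WT arrays (limma adjusted p = 0.148). Without adult replicate 3, TXN (0.39, adjusted p = 0.0445) and TXNDC17 (0.54, adjusted p = 0.0264) passed.

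HMOX1, the inducible haem oxygenase that breaks haem down to biliverdin, iron and carbon monoxide, read 10.74, 10.71, 9.58 and 9.16 in adult RFH, 8.66, 9.05 and 9.02 in juvenile RFH and 8.78, 8.70 and 8.57 in juvenile WT arrays. Adult replicates 1 and 2 were more than 1 unit above adult replicates 3 and 4, which stood nearer to the juveniles. The rise of 1.14 ± 0.34 (SE), 2.2-fold, passed narrowly (limma adjusted p = 0.0453). Leaving out juvenile RFH replicate 1, 2 or 3 gave adjusted p = 0.152, 0.0817 and 0.102, adult replicate 1 or 2 gave 0.0928 and 0.0941, and juvenile WT replicate 1, 2 or 3 gave 0.067, 0.069 and 0.0675. HMOX2, the constitutive enzyme, read 8.89, 9.04, 9.25 and 8.94 in adult RFH, 8.80, 8.86 and 8.85 in juvenile RFH and 8.71, 8.67 and 8.82 in juvenile WT arrays (0.19 ± 0.10, SE, limma adjusted p = 0.214).

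The quinone reductases did not pass. NQO1, a standard NRF2 target, differed by 0.26 ± 0.13 (SE) between adult and juvenile RFH (limma adjusted p = 0.194), and passed without adult replicate 2 (0.37, adjusted p = 0.0451). NQO2 read 9.53, 9.36, 9.75 and 9.65 in adult RFH, 9.37, 9.22 and 9.40 in juvenile RFH and 9.51, 9.71 and 9.69 in juvenile WT arrays (0.24 ± 0.11, SE, limma adjusted p = 0.159 for adult over juvenile RFH).

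The metallothionein MT1A, a small cysteine-rich protein that binds zinc and copper and scavenges radicals, had the largest difference of the 42. It read 10.78, 11.13, 10.90 and 8.40 in adult RFH, 8.45, 8.71 and 8.29 in juvenile RFH and 6.34, 6.80 and 7.43 in juvenile WT arrays. Of the adult arrays 3 lay over 2 units above the juvenile RFH arrays and replicate 4 lay within them, while all RFH arrays lay above all wild-type arrays. The adult difference was 1.82 ± 0.56 (SE), 3.53-fold, with a limma adjusted p of 0.0489. It was 2.46 without adult replicate 4 (adjusted p = 0.000267). Leaving out any other array ended the call: adult replicates 1, 2 and 3 gave adjusted p = 0.103, 0.107 and 0.0845, juvenile RFH replicates 0.129, 0.0863 and 0.142, and juvenile WT replicates 0.064, 0.0732 and 0.0627. Among the genes that passed, the MT1A and HMOX1 probe sets carry the ending _s_at, which Affymetrix gives to sets whose probes match more than 1 transcript, so related metallothioneins may contribute to the MT1A value. A further set annotated to both MT1A and MT3 was left out by the rule.

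The median SD of the 42 genes was 0.24 among adult RFH, 0.11 among juvenile RFH and 0.08 among juvenile WT arrays, beside 0.20, 0.11 and 0.08 for all genes. Among the genes that rose, SOD2, HMOX1, GPX1, TXNRD1 and GSTM3 were highest in adult replicates 1 and 2, whereas GPX3 and PRDX6 were highest in replicate 3. Macrophage markers, 9 of 13 measured, had list means of 11.34, 11.42, 10.88 and 10.84 in adult replicates 1 to 4, against 10.43 to 10.44 in juvenile RFH and 9.96 to 10.11 in juvenile WT arrays. Of these 9 markers 5 rose in adults. TYROBP, a myeloid adaptor with the largest rise of them, had group means of 11.51 ± 0.46 for adult RFH (SD, n = 4) and 10.22 ± 0.19 for juvenile RFH (SD, n = 3). CD163, AIF1 and C1QC had positive differences that did not pass, and MRC1 had a negative one (-0.21, limma adjusted p = 0.255). Macrophages are rich in HMOX1, SOD2 and GPX1, and the part of the marker shift in these rises was not tested. Neutrophil markers, 5 of 8 measured with 1 that rose, S100A9, had list means of 6.09, 6.44, 6.29 and 5.26 in adult replicates 1 to 4, against 5.11 to 5.26 in juvenile RFH and 4.91 to 5.05 in juvenile WT arrays, with adult replicate 4 the lowest of the adults. S100A9 alone read 7.74, 7.62, 8.18 and 5.52 in adult RFH, against 4.45 to 4.60 in juvenile RFH arrays. Adipocyte markers, 7 of 9 measured with 3 that rose and 3 with negative differences, had a median difference of 0.12, and their list means ran from 6.67 to 7.23 in adult RFH, against 6.14 to 6.28 in juvenile RFH and 6.15 to 6.30 in juvenile WT arrays. Among the markers that rose, C1QA of the macrophage list and LPL and PNPLA2 of the adipocyte list did not pass without juvenile RFH replicate 1 (0.0993, 0.104 and 0.16), nor without several other single arrays. FABP4, which macrophages also express, read 9.65, 7.87, 6.79 and 6.64 in adult RFH, against 3.66 to 4.18 in juvenile RFH arrays. Smooth muscle markers, 6 of 7 measured, all had negative differences, with list means of 8.92 to 9.79 in adult RFH, 9.66 to 9.93 in juvenile RFH and 9.61 to 9.72 in juvenile WT arrays. Of these ACTA2 and MYOCD fell, and both calls ended without juvenile RFH replicate 1 (0.0507 and 0.0963), that of MYOCD also without juvenile RFH replicate 3 (0.0947) or adult replicate 1 (0.0607). T and B cell markers, 8 of 11 measured, all had positive differences and none passed in limma (1 at an unadjusted p under 0.05). The part of these markers in the results was not tested.

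**Figure D3:**
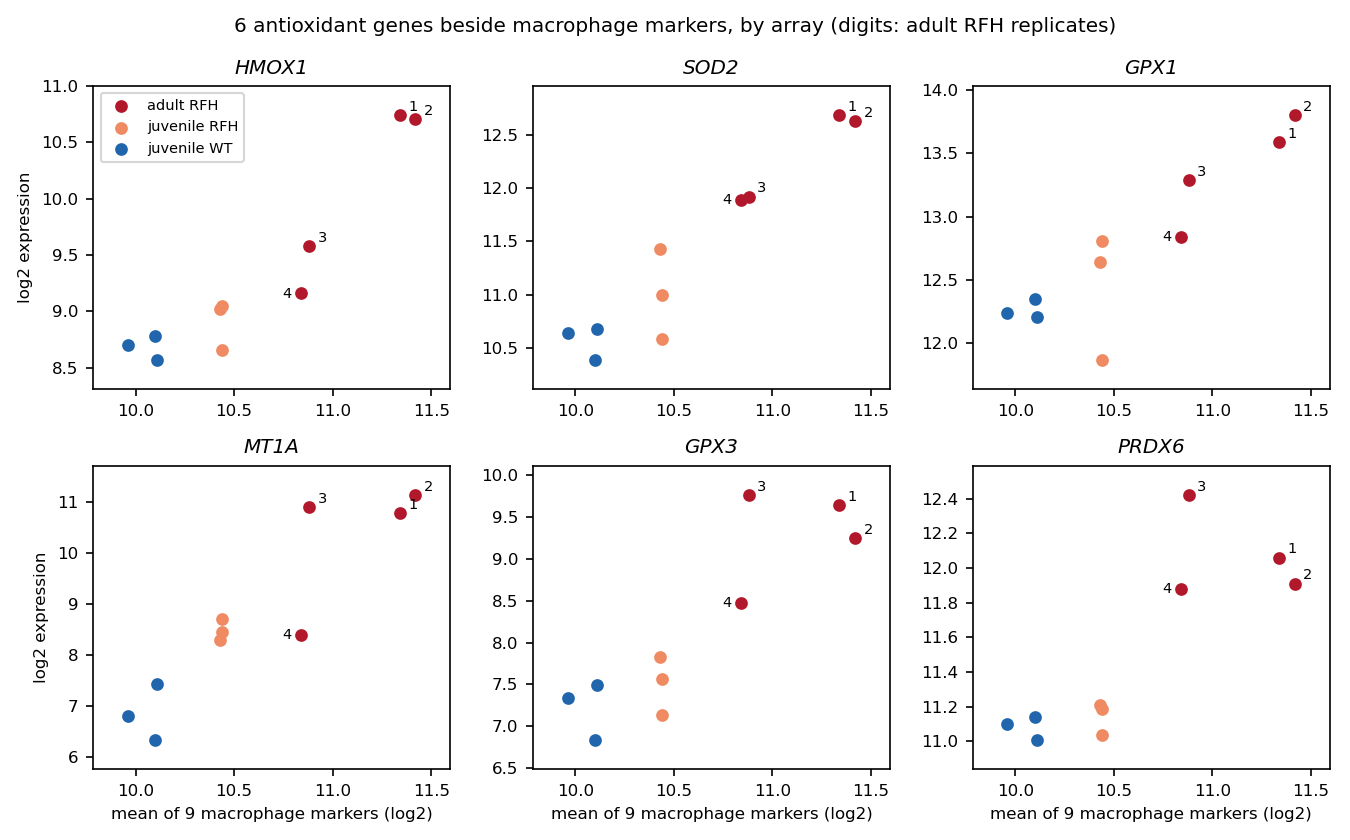
Log2 expression of 6 antioxidant genes (vertical axes) against the mean log2 value of 9 macrophage markers (horizontal axes), 1 point per array, in adult RFH, juvenile RFH and juvenile WT leaflets. Digits number the adult replicates: 1 and 2 are highest for the markers and for HMOX1, SOD2 and GPX1, and replicate 3 is highest for GPX3 and PRDX6.

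Erythroid markers moved against this comparison. The 3 measured of 9 (HBB, AHSP and ALAS2) had means of 6.28 to 7.24 in adult RFH, 7.56 to 8.48 in juvenile RFH and 6.83 to 7.34 in juvenile WT arrays, and 2 of them, AHSP and ALAS2, fell in adults. The ALAS2 call did not hold without juvenile RFH replicate 1 (0.0715) or 2 (0.0678). Catalase and PRDX2, both abundant in red cells, differed by 0.01 ± 0.16 and 0.07 ± 0.09 (SE) between adult and juvenile RFH. In juvenile RFH against WT they differed by -0.20 ± 0.17 and 0.18 ± 0.09 (SE), and none of these 4 differences passed in limma. The part of the erythroid markers in these values was not tested.

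Of the 42 genes, 15 had more than 1 probe set, 24 further sets in all, of which 16 had means below the array medians. In this comparison 6 of the 24 passed. Over all 23999 probe sets 16.8% passed. For TXNRD1 the sets were split: the next in brightness rose by 0.96 ± 0.13 (SE, limma adjusted p = 0.0014), and the dimmest read 8.27, 7.63, 8.01 and 8.60 in adult RFH, 9.11, 9.15 and 8.97 in juvenile RFH and 9.22, 9.41 and 9.20 in juvenile WT arrays, a fall of -0.95 ± 0.19 (SE, limma adjusted p = 0.00772). With the sets of a gene averaged, TXNRD1 differed by 0.29 and lost its call (adjusted p = 0.067), so its direction rests on the choice of probe set. For GCLC, 1 of the 4 other sets rose (0.79 ± 0.15, SE) and 3 did not pass, with differences of -0.18 to 0.08. With its 5 sets averaged GCLC passed at 0.35 (adjusted p = 0.0239), well under the 1.01 of the brightest set. A second GPX7 set fell by -1.0 ± 0.17 (SE, limma adjusted p = 0.00373) and a dim set did not pass (-0.18). The second GPX4 set passed at 0.76 ± 0.20 (SE, limma adjusted p = 0.0282), but not without juvenile RFH replicate 1 (0.118) or 2 (0.0541) or adult replicate 1 (0.0518). GSTZ1, a transferase of tyrosine breakdown, did not pass by its brightest set (-0.16), while its second fell by -0.58 ± 0.15 (SE, limma adjusted p = 0.0265), which no longer passed without juvenile RFH replicate 1 (0.101) or 3 (0.102). With its sets averaged GSTZ1 passed at -0.37 (adjusted p = 0.0327).

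**Figure D4:**
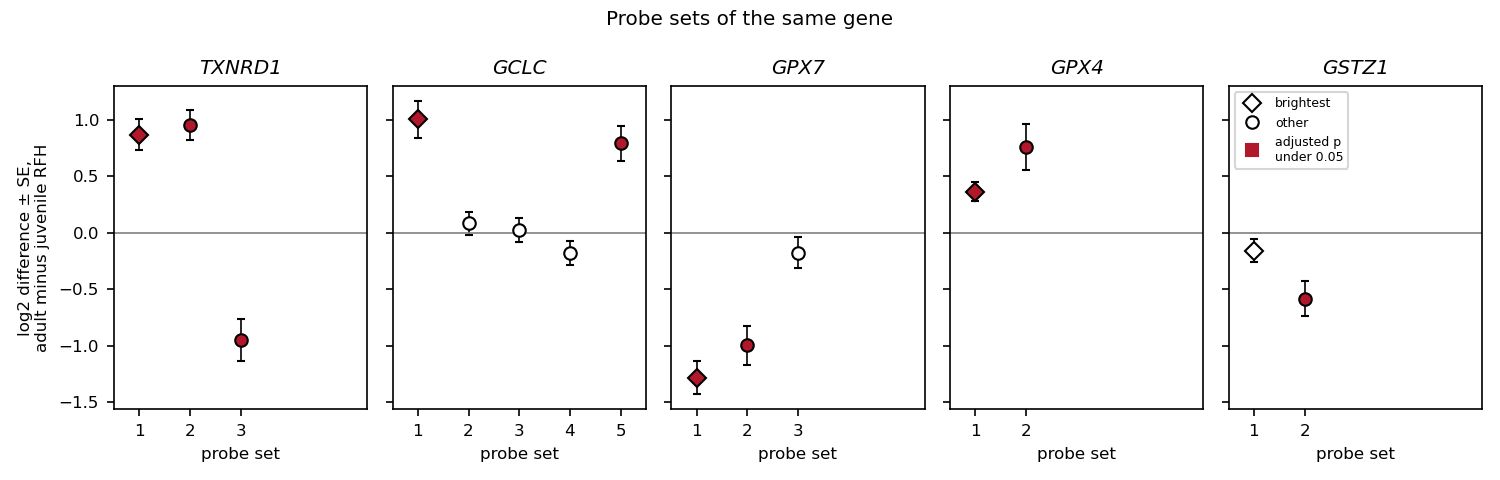
Log2 difference ± SE between adult and juvenile RFH leaflets for each probe set of 5 genes, numbered from the brightest (diamonds) to the dimmest, with filled symbols for adjusted p under 0.05. TXNRD1 has 2 sets near 0.9 and the dimmest at -0.95, and GCLC has 2 of 5 sets above 0.7.

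Between juvenile RFH and juvenile WT leaflets none of the 42 genes passed in limma, where 0.133% of all genes did, 0.0887% upward and 0.0443% downward, and 0.117% of all probe sets. At an unadjusted p under 0.05 there were 12 of 42, 28.6%, beside 15.1% of all genes. The median difference was 0.15 over the 42 genes and 0.07 over all genes. Juvenile RFH arrays lay above all juvenile WT arrays in 13 of the 42 and below them in 4, where all genes had 26.3% and 9.53%, 35.8% in all, so neither share stood far from the rest of the array. The count was also 0 without juvenile RFH replicate 2.

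Of the peroxiredoxins 5 of 6 differences were positive (6 of 6 with RNA breakdown as a covariate), beside 4438 of the 6765 genes, and in 4 of the 6 the arrays did not overlap. PRDX4, the peroxiredoxin of the endoplasmic reticulum, read 12.16, 12.16 and 12.08 in juvenile RFH against 11.83, 11.76 and 11.78 in juvenile WT arrays, a difference of 0.34 ± 0.09 (SE, limma adjusted p = 0.158). The adult RFH arrays lay between 11.91 and 12.12, above all juvenile WT arrays and partly below juvenile RFH. PRDX1 differed by 0.37 ± 0.15, PRDX5 by 0.31 ± 0.13 and PRDX2 by 0.18 ± 0.09 (SE), each without overlap. SOD1 read 12.08, 12.07 and 12.17 in juvenile RFH against 11.80, 11.82 and 11.93 in juvenile WT arrays (0.25 ± 0.10, SE, limma adjusted p = 0.349).

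The largest differences belonged to MT1A, 1.63 ± 0.60 (SE, limma adjusted p = 0.297), and to GSTM3, described above. GSTO1 differed by 0.60 ± 0.25 (SE, limma adjusted p = 0.351) and SOD2 by 0.44 ± 0.26 (SE, limma adjusted p = 0.530), both with overlap. TXNRD1 differed by 0.40 ± 0.15 and GPX4 by 0.21 ± 0.09 (SE). For both of these and for MT1A, the brightest set gave the order adult RFH, juvenile RFH and juvenile WT from high to low by group mean. The same order held for the other genes that rose in adult over juvenile RFH, except GSTM3. The dimmest TXNRD1 set went the other way here too, at -0.20 ± 0.20 (SE), and did not pass. TXNRD3, a thioredoxin reductase known from mouse testis, read low, at 6.67, 6.40 and 6.60 in juvenile RFH and 6.30, 6.08 and 6.31 in juvenile WT arrays. It differed by 0.32 ± 0.12 (SE, limma adjusted p = 0.293), and its dimmer set by 0.39 ± 0.09 (SE, limma adjusted p = 0.118), both without overlap. NQO2 ran the other way, at -0.31 ± 0.12 (SE, limma adjusted p = 0.309), with no overlap between juvenile RFH and WT. Fitted on these 6 arrays alone, 5 genes passed: GSTM3 (adjusted p = 0.014), MT1A (0.0255), PRDX1 (0.0447), PRDX4 (0.048) and TXNRD1 (0.0497). That fit passed 872 of 23999 probe sets, against 28 with all 10 arrays.

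Other genes around these pathways were read from lists by name. Of 25 measured enzymes linked to NRF2 or to redox repair, 6 rose and 1 fell in adult RFH, with a median of 0.01. Over all genes 11.4% passed upward and 7.85% downward. GLRX, the glutaredoxin that reduces protein disulfides with glutathione, read 10.70, 10.79, 9.68 and 10.09 in adult RFH and 8.72, 8.81 and 9.19 in juvenile RFH arrays, a rise of 1.41 ± 0.25 (SE, limma adjusted p = 0.00425). MSRB3, a methionine sulfoxide reductase, fell by -0.55 ± 0.10 (SE, limma adjusted p = 0.00635), and ALDH2, a mitochondrial aldehyde dehydrogenase, rose by 0.42 ± 0.08 (SE, limma adjusted p = 0.00795). The other genes of this list that rose did not pass without juvenile RFH replicate 1 (limma adjusted p = 0.0562 to 0.0993). Of 7 genes of cysteine supply 1 rose and 1 fell: CDO1, which degrades cysteine, rose by 1.12 ± 0.16 (SE), and the cysteine and glutamate transporter gene SLC1A1 had a fall of -1.26 ± 0.31 (SE), whose call was lost without juvenile RFH replicate 1 (0.0787) or 3 (0.0825). Of 8 NRF2 regulators only the autophagy receptor gene SQSTM1 was measured, at 0.43 ± 0.11 (SE, limma adjusted p = 0.0267), which did not hold without juvenile RFH replicate 1 (0.111) or 3 (0.0587) or adult replicate 1 (0.0575). NFE2L2 and KEAP1 were not analysed here.

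Of 14 haem and iron genes 3 rose and 1 fell, with a median of 0.27. FTL, the light chain of ferritin, which stores iron, rose by 0.38 ± 0.08 (SE, limma adjusted p = 0.0105) and SLC11A1, a metal transporter of phagocytes, by 1.5 ± 0.29 (SE, limma adjusted p = 0.00699), beside the macrophage marker means given above. The other calls, the iron hormone hepcidin gene HAMP upward (1.07) and FECH, the last enzyme of haem synthesis, downward (-0.33), both ended without juvenile RFH replicate 1 (0.069 and 0.0663) or 3 (0.0807 and 0.0966), and FECH also without juvenile RFH replicate 2 (0.0821), adult replicate 2 (0.0622) or juvenile WT replicate 2 (0.0514). Of 4 zinc handling genes 1 passed, the zinc transporter gene SLC39A7, with a fall of -0.40 ± 0.08 (SE, limma adjusted p = 0.0101). Among 9 measured sources of superoxide, peroxide or nitric oxide, NOS3, the endothelial nitric oxide synthase, rose by 1.71 ± 0.33 (SE, limma adjusted p = 0.0066) and 8 did not pass. Beside it, endothelial markers, 9 of 10 measured with 2 upward and 1 downward, had list means of 8.78 to 9.69 in adult RFH, 8.75 to 9.05 in juvenile RFH and 8.34 to 8.68 in juvenile WT arrays. Of the upward calls, TIE1 did not pass without juvenile RFH replicate 1 (0.0628) or 3 (0.0569). CYBA, a subunit of the NADPH oxidases, was among these 8, with 11.20, 11.0, 10.70 and 10.53 in adult RFH, 10.37, 10.42 and 10.48 in juvenile RFH and 9.93, 9.80 and 9.86 in juvenile WT arrays. In none of these 6 lists did a gene pass between juvenile RFH and WT in limma.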

How the data were processed

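Total RNA (400 ng per sample, per the labels) was labelled with biotin and hybridised to Affymetrix porcine arrays. The deposited table holds log2 expression for 24123 probe sets, a unit read from its values. The submitters' processing notes name R 2.15.2. How probes were corrected, normalized and summarised is not given in the sources used here. After 124 control probe sets were set aside, 23999 were fitted on all 10 arrays in R 4.3.3 with limma 3.58.1 (an untrended eBayes prior), with 7 residual and 3.57 prior degrees of freedom. Tests were two-sided and adjusted by Benjamini-Hochberg over all of them. The number of arrays limits the precision. The fit was tested on simulated data. Gene IDs of all 42 members were found in the RefSeq gene table (Sscrofa11.1), with the same symbols.

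The members and lists were chosen with earlier results of these data known. Arrays of every member that passed, and of the member with the smallest p among the others of its role, were printed. From the other lists, up to 3 called genes per direction were named. CYBA, TXN, TXN2 and the members of the second comparison were added after their values were seen. The alternatives were 3 normalizations, a filter on dim probe sets, a fit of the 2 groups compared, a trended robust prior, array weights, a floor of 4, averaged probe sets, the replicate number as a block, an added fold of 1.5 and each array left out. A covariate for the 3' minus 5' difference was chosen after seeing the data. The replicate numbers were checked for pairing and did not pair the arrays.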

Additional observations from a re-analysis of the deposited data

Results flagged for a closer look

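Among the 4 adult RFH arrays, MT1A in replicate 4 was far from the others, at 8.40, and its gap to the next array took up 0.871 of the group's range. TXNL1, a thioredoxin-like protein of the proteasome, stood out in adult RFH replicate 2, at 11.09, with a gap of 0.905 of a range that ran only from 10.98 to 11.09. Both gaps are above Dixon's limit for 4 samples, and chance flags about 1 in 20 groups, so that 2.1 such arrays are expected among 42 genes.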

How the results depend on the processing

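For adult over juvenile RFH, the count of 12 called genes was 8 to 13 over all alternatives, and 8 to 13 with each array left out in turn. It was 8 when fitted on the 7 RFH arrays alone, and no called gene changed direction under any alternative. No alternative put another single probe set in place of the brightest, so a split such as that of TXNRD1 could not appear here. With averaged probe sets TXNRD1 kept its direction but lost its call (0.29, adjusted p = 0.067), and its dimmest set fell, as given above. GPX3, GPX7, GSTM3, PRDX6, SOD2 and TXNIP passed in every alternative that applies the adjusted p alone, as did GCLC wherever it was tested; it is below the filter on dim probe sets. MT1A was lost with quantile normalization (adjusted p = 0.0526), with the 3' minus 5' covariate (0.0533), with array weights (0.115), with a floor of 4 (0.108) and on the RFH arrays alone (0.0943). GPX1 and HMOX1 were lost with array weights (0.0569 and 0.0606), the floor (0.0656 and 0.0989) and the RFH arrays alone (0.0725 and 0.103), and GPX4 with the RFH arrays alone (0.0554). For juvenile RFH over WT the count of 0 was 5 with only the 2 groups compared, 3 with array weights (GSTM3, PRDX4 and TXNRD1) and 1 with the replicate block (GSTM3, adjusted p = 0.0334). With each array left out in turn it was 0 to 1, GSTM3 passing without adult replicate 2 (0.0142). TXNL4A passed in the first comparison without adult replicate 1 (-0.37, adjusted p = 0.044). Over all probe sets, the first comparison passed 4025, against 2308 on the RFH arrays alone and 2243 to 4965 with an array left out. The second passed 28, against 872 with only its 2 groups, 1171 with array weights, 62 with the covariate, 17 with the block, 10 with the floor, 6 with dim sets left out and 2 to 71 with an array left out. The reported fit uses 1 estimate of the spread per probe set for all 3 groups. Arrays outside a comparison thus also enter its p-values. Over all genes the median SD was 0.20 among adult RFH, 0.11 among juvenile RFH and 0.08 among juvenile WT arrays. The causes of these changes in count were not tested. The replicate block gave 13 calls in the first comparison, adding GCLM at 0.68 (adjusted p = 0.0368), but arrays that share a number need not share anything else. Deviations of same-numbered arrays correlated at -0.156, 0.157 and 0.086 between adult and juvenile RFH, and at 0.185, -0.011 and -0.069 between juvenile RFH and WT.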
